A study of Mus musculus with 12 samples.

Results

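Expressed zinc finger genes of B16F10 mouse melanoma cells were followed across 4 treatments. The genes carry a symbol made of Zfp, a number and at most 1 letter. Of the 360 such symbols in the count files, 315 were selected on their measured level, which had to reach a CPM (counts per 1000000 of the file total) of at least 1 in at least 3 of the 12 libraries. These 315 genes were among 11638 genes of 24421 that passed the same filter. With the combination of drugs, 34 of the 315 Zfp genes changed (10.8%, compared with 31.6% of all genes tested), all but 1 by less than 2-fold. Of these 34 calls, 12 were kept when the replicate number was not taken into account.

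B16F10 is a melanoma cell line that was derived from a C57BL/6 mouse. Cells were given DMSO (control), 5-aza-2'-deoxycytidine (DAC), sulforaphane (SFN) or both drugs (DAC+SFN), with 3 independent replicates in each group. DAC was used at 25 nM for 72 h and SFN at 5 µM for the last 48 h, and all groups were harvested together. The protocol in the labels writes 5 nM for SFN given alone and 5 µM for SFN in the combination, so comparisons between these groups rest on the dose stated in the study's methods. DAC is incorporated into DNA and traps DNA methyltransferases, whereas SFN is an electrophile from cruciferous plants that activates the transcription factor NRF2.

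Zinc fingers are small folds held by a zinc ion, and rows of C2H2 fingers read DNA base by base. Many mouse Zfp genes encode KRAB zinc finger proteins, which bind retroelements and imprinted regions and recruit the corepressor TRIM28, the histone methyltransferase SETDB1 and DNA methylation to keep them silent. Other Zfp proteins share only the name, and bind RNA, ribosomes, the mitotic spindle or gene promoters.

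Poly(A) RNA was sequenced and reads were counted per gene, with 15880957 to 27291436 counts per library. Levels are given as TMM-normalized CPM, which take up edgeR's scaling between libraries. At these totals, 1 CPM stood for 16 to 27 counts. The 8 melanocyte markers, such as Pmel and Tyrp1, summed to between 22415 and 31193 CPM in the 12 libraries. The 5 keratinocyte and 5 immune markers had at most 3 counts in any library. Of 5 fibroblast markers, Dcn and Lum had at most 3 counts, while the summed level of the 5 ranged from 19.95 to 320.3 CPM in the controls, from 25.1 to 366.0 under DAC, from 19.6 to 250.2 under SFN and from 28.5 to 251.2 under DAC+SFN, and was highest in replicate 3 of each group. Bulk RNA cannot tell a lower level per cell from fewer cells that express a gene.

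Most Zfp genes were expressed at a low level. Their median over the 12 libraries was 14.2 CPM, where the median of all genes tested was 36.8 CPM. Per kilobase of exon the medians were 3.02 and 7.67 CPM, and 57 Zfp genes lay above the latter. The highest per kilobase in control were Zfp706 with 39.8 ± 1.44 CPM per kb (SD, n = 3), Zfp207, which binds the checkpoint protein Bub3 at the spindle, with 33.5 ± 2.36, the RNA-binding Zfp106 with 31.1 ± 0.69, Zfp422 with 29.1 ± 1.43 and Zfp637 with 26.1 ± 0.30. The ranges of mean ± SD overlapped for Zfp207 and Zfp106 and for Zfp106 and Zfp422. At the other end, 45 Zfp genes averaged under 5 CPM. The lowest means were 0.842 CPM for Zfp296, 0.943 for Zfp69, 0.959 for Zfp433, 1.09 for Zfp385c and 1.23 for Zfp551.

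The summed level of the 315 Zfp genes was 7978, 7538 and 7962 CPM in control replicates 1, 2 and 3. It was 8026, 7834 and 7724 CPM after DAC, 7903, 7758 and 7796 CPM after SFN, and 8074, 7744 and 8154 CPM after DAC+SFN. Each treated group overlapped control. Compared to the control of the same replicate number, the sum was higher in 2 of 3 replicates after DAC, in 1 of 3 after SFN and in 3 of 3 after DAC+SFN, where it was higher by 95.1, 206.1 and 192 CPM. Exact permutation tests of the unpaired sums gave two-sided p = 0.8 for DAC, 1 for SFN and 0.5 for DAC+SFN, but 3 against 3 libraries allow no value under 0.1, so a difference could not have passed 0.05. Zfp genes held between 0.741% and 0.842% of the counts of a library.

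A gene was called changed at a Benjamini-Hochberg adjusted p under 0.05 over the 11638 genes, by edgeR's quasi-likelihood test with the replicate number as a block. Compared to control, DAC changed 0 of 315 Zfp genes, where 0.18% of all genes tested were called. At an unadjusted p under 0.05 there were 9 Zfp genes (2.86%, compared with 10.1% of all genes), and DESeq2 called 2. SFN changed 11 Zfp genes (3.49%), while 13.9% of all genes tested were called. Of these, 5 rose (8.27% of all genes rose) and 6 fell (5.65% of all genes fell), and 0 passed a fold change of 2 as well (1.28% of all genes). DAC+SFN changed 34 Zfp genes (10.8%), with 31.6% of all genes called. Of the 34, 21 rose (17.0% of all genes rose) and 13 fell (14.7% of all genes fell), and 1 passed a fold change of 2 as well (2.66% of all genes).

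The calls depended on the replicate block. Without it, 0 Zfp genes were called with SFN and 12 with DAC+SFN, namely Zfp365, Zfp346, Zfp385a, Zfp317, Zfp369, Zfp672, Zfp9, Zfp131, Zfp277, Zfp422, Zfp821 and Zfp946. Of the 34 calls with DAC+SFN, 11 were kept without any one of the 6 compared libraries, 23 were lost in at least 1 such fit, and 2 (Zfp146 and Zfp354a) were lost by DESeq2. The SFN count was 2 without control replicate 2, SFN replicate 2 or SFN replicate 3, 3 without control replicate 1, 5 without SFN replicate 1 and 20 without DAC+SFN replicate 3. The DAC+SFN count was 20, 15 and 19 without control replicate 1, control replicate 2 and DAC+SFN replicate 1.

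Some markers of cell type were called beside the Zfp genes. With DAC+SFN, 3 of 8 melanocyte markers were called (37.5%, compared with 31.6% of all genes). The melanosome genes Pmel (-0.36 ± 0.10, adjusted p = 0.0129) and Tyrp1 (-0.17 ± 0.06, adjusted p = 0.0478) fell, and Slc45a2 rose (0.18 ± 0.06, adjusted p = 0.0236). Of 3 fibroblast markers tested, the growth factor receptor gene Pdgfra fell with SFN (-0.84 ± 0.23, adjusted p = 0.0240) and with DAC+SFN (-0.73 ± 0.23, adjusted p = 0.0249), on 26 to 65 counts per library. This was 33.3% of the 3 in each comparison, where 13.9% of all genes were called with SFN and 31.6% with DAC+SFN. With DAC+SFN, Col1a1 (0.16 ± 0.15) and Col1a2 (-0.14 ± 0.24) were not called. In DAC+SFN compared to DAC, Col1a2 fell (-0.71 ± 0.23, adjusted p = 0.0493) and Tyr was called higher. Col1a1 (0.08 ± 0.15) and Pdgfra (-0.24 ± 0.24) were not called there. The part of these markers in the Zfp calls was not tested.

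The centre of the family lay close to 0 with each drug. The median log2 fold change of the 315 Zfp genes was 0.020 with DAC, -0.0081 with SFN and 0.0052 with DAC+SFN, where the medians of all genes were 0.0049, 0.0040 and 0.0078. With DAC+SFN, 158 Zfp genes lay above 0 and 157 below. The median absolute log2 fold change was 0.071, 0.10 and 0.12 in the 3 comparisons, and 0.076, 0.12 and 0.16 over all genes. The median SE of a log2 fold change was about 0.12 for Zfp genes and 0.084 for all genes, so changes of Zfp genes were measured less precisely. Even so, the 95% confidence interval lay within 2-fold for 312 Zfp genes with DAC, 311 with SFN and 306 with DAC+SFN. Fitted changes beyond 1.5-fold were found for 1, 2 and 6 Zfp genes (0.317%, 0.635% and 1.9%), compared with 2.01%, 5.67% and 8.97% of all genes.

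**Figure D1:**
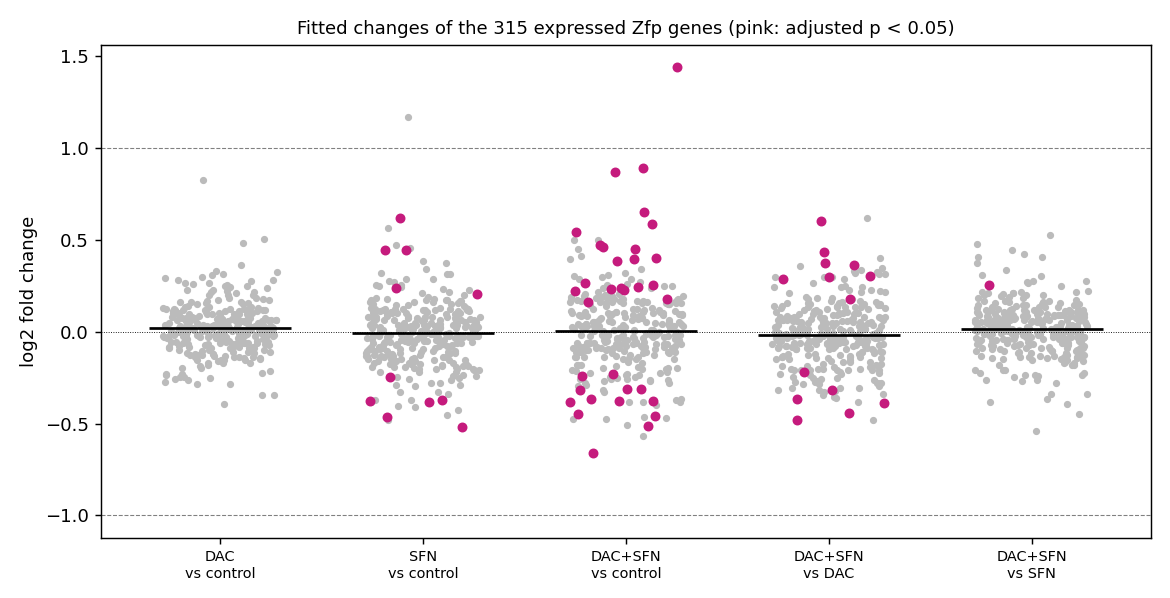
Log2 fold change (y axis) of each of the 315 Zfp genes in 5 comparisons (x axis). Grey points were not called, pink points had an adjusted p under 0.05 (0, 11, 34, 14 and 1 genes), black bars are medians and dashed lines mark a 2-fold change. The medians lie at about 0 in every comparison, and the pink points lie on both sides of it in the 3 comparisons with 11, 34 and 14 calls.

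Among the 9 Zfp genes of a list of RNA and ribosome factors, 3 rose with DAC+SFN and 0 fell (33.3% called, compared with 31.6% of all genes). These were Zfp346, which encodes a double-stranded RNA-binding protein, Zfp385a, an RNA-binding partner and target of p53, and Zfp36, whose product tristetraprolin leads AU-rich mRNAs to decay. The median log2 fold change of the 9 was 0.16. The other 6, Zfp106, Zfp326, Zfp638, Zfp598, Zfp622 and Zfp593, had log2 fold changes between -0.02 and 0.26, none of them called. SFN alone raised 2 of the 9 (22.2%), Zfp346 and Zfp385a, where 8.27% of all genes rose and 13.9% were called in either direction.

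Zfp346 lies at chr13:55105311-55134825 on the plus strand (mm10). Its level was 43.7, 48.7 and 46.7 CPM in control replicates 1 to 3. DAC gave 53.5, 64.4 and 55.3 CPM, SFN 49.2, 61.0 and 50.7, and DAC+SFN 59.95, 69.1 and 62.7. Each treated group lay above all controls. Zfp346 rose with SFN (log2 fold change 0.21 ± 0.06 SE, adjusted p = 0.0314) and with DAC+SFN (0.46 ± 0.06, adjusted p = 6.89e-05). With DAC the log2 fold change was 0.31 ± 0.06 and the adjusted p was 0.0514, just outside the threshold, with 0.00952 by DESeq2. The SFN call of Zfp346 was lost by DESeq2 (adjusted p = 0.0514). Exons of Zfp346 share 39 bases with a gene on the other strand.

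Zfp385a lies on the minus strand at chr15:103313895-103340093. Its 3 libraries had 25.9, 37.9 and 33.0 CPM in control. The DAC libraries had 34.3, 59.5 and 44.7, the SFN libraries 38.6, 58.8 and 35.9 and the DAC+SFN libraries 56.0, 77.8 and 44.3. DAC+SFN lay above control without overlap, whereas DAC and SFN overlapped control. Zfp385a rose with SFN (0.45 ± 0.12, adjusted p = 0.0197) and with DAC+SFN (0.87 ± 0.12, adjusted p = 9.16e-05, 1.83-fold). The log2 fold change with DAC was 0.51 ± 0.12 with an adjusted p of 0.111, and 0.00723 by DESeq2. Within replicate numbers the DAC+SFN difference from control was 1.11, 1.04 and 0.42.

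Zfp36 lies at chr7:28376784-28380253 on the minus strand, and 125 bases of its exons are shared with a gene on the other strand. Its level was 12.1, 9.08 and 15.4 CPM in control, 12.5, 12 and 19.7 after DAC, 12.3, 15.6 and 19.0 after SFN, and 18.2, 16.2 and 19.6 after DAC+SFN. Control reached 15.4 and DAC+SFN began at 16.2 CPM, so these groups did not overlap. Zfp36 rose with DAC+SFN (0.59 ± 0.13, adjusted p = 0.00426, 1.5-fold) and lost this call without the replicate block (adjusted p = 0.127). With SFN its log2 fold change was 0.38 ± 0.13 with an adjusted p of 0.0756.

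Of 8 division and genome maintenance factors, 2 rose and 1 fell with DAC+SFN (37.5% called, compared with 31.6% of all genes), with a median log2 fold change of 0.16. Zfp365, which stabilizes replication forks and telomeres and is a p53 target, had the smallest adjusted p of all Zfp genes. It had 30.3, 43.1 and 33.1 CPM in control, and 36.8, 54.0 and 39.2 after DAC. It had 46.7, 70.1 and 47.6 CPM after SFN, and 69.1, 72.4 and 54.1 after DAC+SFN. SFN and DAC+SFN lay above control without overlap, and DAC overlapped it. Zfp365 rose with SFN (0.62 ± 0.09, adjusted p = 0.000568, 1.54-fold) and with DAC+SFN (0.89 ± 0.09, adjusted p = 1.27e-05, 1.85-fold). Both calls were kept without any one of the 6 libraries compared, and without the replicate block the adjusted p was 0.177 with SFN and 0.0211 with DAC+SFN. The log2 fold change with DAC was 0.28 ± 0.09 with an adjusted p of 0.293.

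Zfp280c, a factor of DNA end resection, rose with DAC+SFN (0.25 ± 0.09, adjusted p = 0.0425) from 35.5 ± 3.08 to 42.2 ± 5.56 CPM (SD, n = 3). Zfp830, which acts in pre-mRNA processing and genome stability, fell (-0.23 ± 0.07, adjusted p = 0.0289) from 26.3 ± 1.66 to 22.4 ± 0.48 CPM. Each of these calls was lost in 4 or 5 of the 6 fits that left out 1 compared library. The other members, Zfp207, Zfp668, Zfp827, Zfp451 and Zfp335, had log2 fold changes between -0.11 and 0.24.

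**Figure D2:**
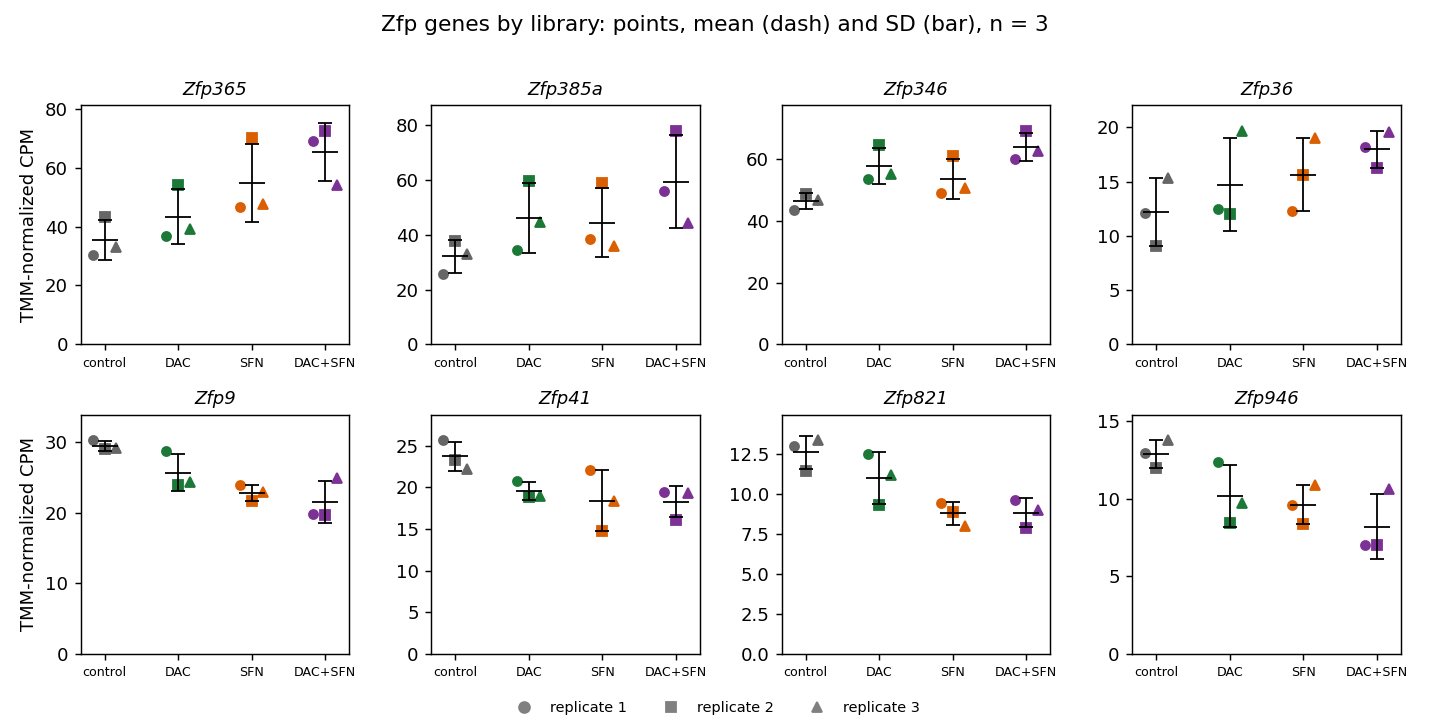
TMM-normalized CPM (y axis, from 0) of 8 Zfp genes in the 12 libraries by group (x axis). Circles, squares and triangles are replicates 1, 2 and 3, the dash is the mean and the bar 1 SD (n = 3). The upper 4 genes were highest on average with DAC+SFN and the lower 4 were highest on average in control; Zfp385a and Zfp365 were highest in replicate 2 of each group.

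The stretches upstream of the 3 genes with the smallest adjusted p with DAC+SFN are shown because DAC acts on methylated CpG sites. Each holds the 250 bases before the RefSeq start of transcription (GRCm38.p6, 5' to 3' on the strand of the gene), with CpG sites in capitals. Zfp365 had 6 CpG sites (chr10:67912663-67912912, minus strand), Zfp385a had 19 (chr15:103340087-103340336, minus strand) and Zfp346 had 13 (chr13:55105072-55105321, plus strand).
Zfp365: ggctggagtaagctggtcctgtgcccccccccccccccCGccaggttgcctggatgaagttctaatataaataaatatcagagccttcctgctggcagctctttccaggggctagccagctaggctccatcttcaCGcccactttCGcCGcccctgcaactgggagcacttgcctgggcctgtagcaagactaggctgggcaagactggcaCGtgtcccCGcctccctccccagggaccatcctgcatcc
Zfp385a: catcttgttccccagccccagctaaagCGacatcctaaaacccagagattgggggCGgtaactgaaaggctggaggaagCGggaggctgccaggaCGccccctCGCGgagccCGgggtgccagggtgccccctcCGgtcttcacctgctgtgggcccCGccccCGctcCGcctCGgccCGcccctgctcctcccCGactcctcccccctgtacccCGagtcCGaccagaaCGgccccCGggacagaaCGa
Zfp346: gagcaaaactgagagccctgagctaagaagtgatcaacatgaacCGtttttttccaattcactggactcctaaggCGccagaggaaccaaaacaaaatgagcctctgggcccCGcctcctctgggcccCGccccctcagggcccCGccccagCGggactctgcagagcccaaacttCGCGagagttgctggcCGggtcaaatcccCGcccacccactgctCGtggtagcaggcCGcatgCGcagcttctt
Methylation was not measured, and these letters say nothing of it. TGACNNNGC, the core of the antioxidant response element that NRF2 binds, was searched on both strands. It was found once in the 3 stretches, on the reverse strand at position -60 of Zfp346. In windows of 300 bases around the start, which were at hand for 264 Zfp genes, the core was held by 14% of Zfp genes, 15.0% of the genes tested and 12.5% of all genes. The median number of CpG sites per window was 15 for Zfp genes and 22 for the genes tested.

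Of 22 promoter-binding and cofactor-recruiting Zfp factors, 19 were expressed. With DAC+SFN, 3 of the 19 rose (15.8%, compared with 17.0% of all genes) and 0 fell (14.7% of all genes), with a median log2 fold change of 0.05. Zfp296, a heterochromatin factor of stem cells, had the largest fitted change of the family (1.44 ± 0.45, adjusted p = 0.0236, 2.72-fold). It rested on few reads, with 5, 14 and 9 counts in control, 6, 18 and 26 after DAC, 26, 28 and 16 after SFN, and 23, 26 and 26 after DAC+SFN. The control libraries lay below 1 CPM, so that this gene entered the family through treated libraries. The call of Zfp296 was lost in 4 of 6 fits that left out a compared library and without the replicate block (adjusted p = 0.0888), and 263 bases of its exons are shared with a gene on the other strand.

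Zfp462, a large chromatin factor of stem cells, had 35.9, 35.4 and 36.2 CPM in control and 44.5, 40.2 and 41.7 with DAC+SFN. The groups did not overlap, and Zfp462 rose (0.23 ± 0.07, adjusted p = 0.0231). Zfp592, a partner of the chromatin reader ZMYND8, rose from 38.5 ± 0.44 to 44.9 ± 4.36 CPM (0.22 ± 0.07, adjusted p = 0.0267). Both genes lost this call in 4 of 6 fits that left out a compared library and without the replicate block (adjusted p = 0.0570 for Zfp462 and 0.0998 for Zfp592). Zfp687 and Zfp532, which belong to the same complex, had log2 fold changes of -0.07 ± 0.07 and -0.10 ± 0.07. The GC-box factors Zfp148 and Zfp281 had -0.01 ± 0.07 and 0.17 ± 0.07. Zfp410, which activates Chd4, had -0.06 ± 0.07 and the corepressor-recruiting Zfp217 had 0.05 ± 0.06.
No call was made among the promoter-binding factors with DAC or with SFN alone by edgeR. Zfp521, Zfp711 and Zfp42 did not pass the filter, and Zfp42, the stem cell factor Rex1, had 0 counts in all libraries.

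Of 7 KRAB repressors with known targets, 6 were expressed and none was called in any comparison by edgeR, where DAC+SFN changed 31.6% of all genes. Zfp445, which keeps methylation at imprinting control regions, was the highest with 125 ± 9.98 CPM in control and 139 ± 16.7 with DAC+SFN (log2 fold change 0.15 ± 0.07, adjusted p = 0.111). Zfp57, which has the same task, had 6.69 ± 0.81 and 6.32 ± 1.65 CPM (-0.09 ± 0.16, adjusted p = 0.697). Zfp809, which silences murine leukaemia virus-like elements, had 17.1 ± 1.10 and 17.7 ± 0.98 CPM (0.06 ± 0.09, adjusted p = 0.675). Zfp932 had 0.19 ± 0.12, Zfp708 had -0.06 ± 0.16 and Zfp568 had 0.17 ± 0.08. Zfp819 did not pass the filter, with at most 3 counts in a library.

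The partners of KRAB proteins were measured beside them. Of 20 genes of the silencing machinery, 8 were called with DAC+SFN (40.0%, compared with 31.6% of all genes), 1 higher and 7 lower (17.0% and 14.7% of all genes). Dnmt3b (-0.60 ± 0.17, adjusted p = 0.0144) and Uhrf1 (-0.38 ± 0.07, adjusted p = 0.000748), which write and guide DNA methylation, fell. The corepressor gene Trim28 had -0.17 ± 0.06 with an adjusted p of 0.0551. SFN lowered 2 of the 20 (10.0%), where 5.65% of all genes fell and 13.9% were called in either direction. DAC changed 0 of the 20 by edgeR.

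Outside these lists, 13 Zfp genes rose with DAC+SFN and 12 fell. In the whole family 6.67% rose and 4.13% fell, where 17.0% of all genes tested rose and 14.7% fell. Of those that rose in all 3 replicates, Zfp874a went from 9.06, 9.64 and 9.24 CPM in control to 13.2, 16.2 and 14.6 (0.65 ± 0.13, adjusted p = 0.00217). These groups did not overlap. Zfp52 rose by 0.54 ± 0.14 (adjusted p = 0.00868), Zfp369 by 0.47 ± 0.13 (adjusted p = 0.0110), Zfp672 by 0.40 ± 0.09 (adjusted p = 0.00437) and Zfp317 by 0.26 ± 0.07 (adjusted p = 0.00846). Zfp956, Zfp397, Zfp768, Zfp664 and Zfp146 rose by 0.16 to 0.39. These 5 calls were lost without the replicate block (adjusted p from 0.0520 for Zfp956 to 0.414 for Zfp146) and in 4 of 6 fits that left out a compared library, or 6 of 6 for Zfp146, which DESeq2 did not call either (adjusted p = 0.0810). Without the block Zfp874a (adjusted p = 0.0644) and Zfp52 (0.0532) were not called. Zfp692, Zfp219 and Zfp646 were also called higher, but replicate 3 did not go the same way, and each lost its call without the block and in 4 of the 6 fits.

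Zfp946 fell most among the genes called lower. It had 12.9, 11.96 and 13.8 CPM in control and 12.4, 8.42 and 9.70 after DAC. SFN gave 9.60, 8.35 and 10.9 CPM, and DAC+SFN 7.01, 6.99 and 10.6. The DAC+SFN libraries lay below all controls (-0.66 ± 0.15, adjusted p = 0.00327). Zfp821 had 13.02, 11.4 and 13.4 CPM in control and 12.5, 9.32 and 11.2 after DAC. It had 9.46, 8.88 and 8.01 CPM after SFN, and 9.61, 7.85 and 9.01 after DAC+SFN. Zfp821 fell with SFN (-0.52 ± 0.11, adjusted p = 0.00669) and with DAC+SFN (-0.52 ± 0.11, adjusted p = 0.00322), both without overlap with control.

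Zfp9 fell from 30.3, 29.0 and 29.1 CPM in control to 19.8, 19.7 and 24.9 with DAC+SFN (-0.46 ± 0.10, adjusted p = 0.00236) and to 23.9, 21.6 and 22.9 with SFN (-0.37 ± 0.09, adjusted p = 0.0170). Zfp41 fell with SFN (-0.38 ± 0.10, adjusted p = 0.0175) and with DAC+SFN (-0.38 ± 0.10, adjusted p = 0.00936). Zfp131, a BTB zinc finger protein, fell from 69.3 ± 6.56 to 55.8 ± 3.63 CPM with DAC+SFN (-0.31 ± 0.06, adjusted p = 0.00246). Zfp422 fell from 105 ± 5.17 to 89.1 ± 1.80 CPM (-0.24 ± 0.06, adjusted p = 0.00450). Zfp277, a repressor of the Cdkn2a locus, fell from 30.3 ± 2.17 to 23.3 ± 1.47 CPM (-0.38 ± 0.09, adjusted p = 0.00704). Zfp354a, Zfp101, Zfp961 and Zfp354c fell by 0.31 to 0.38 on the log2 scale. These 4 calls were lost without the replicate block (adjusted p from 0.118 for Zfp354a to 0.323 for Zfp354c) and in 2 to 4 of 6 fits that left out a compared library, and DESeq2 did not call Zfp354a (adjusted p = 0.0709). Zfp41 lost its DAC+SFN call without the block (adjusted p = 0.0944). Zfp395 was called lower as well (-0.45 ± 0.14, adjusted p = 0.0266), but not in replicate 2, and lost this call without the block (adjusted p = 0.345).

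**Figure D3:**
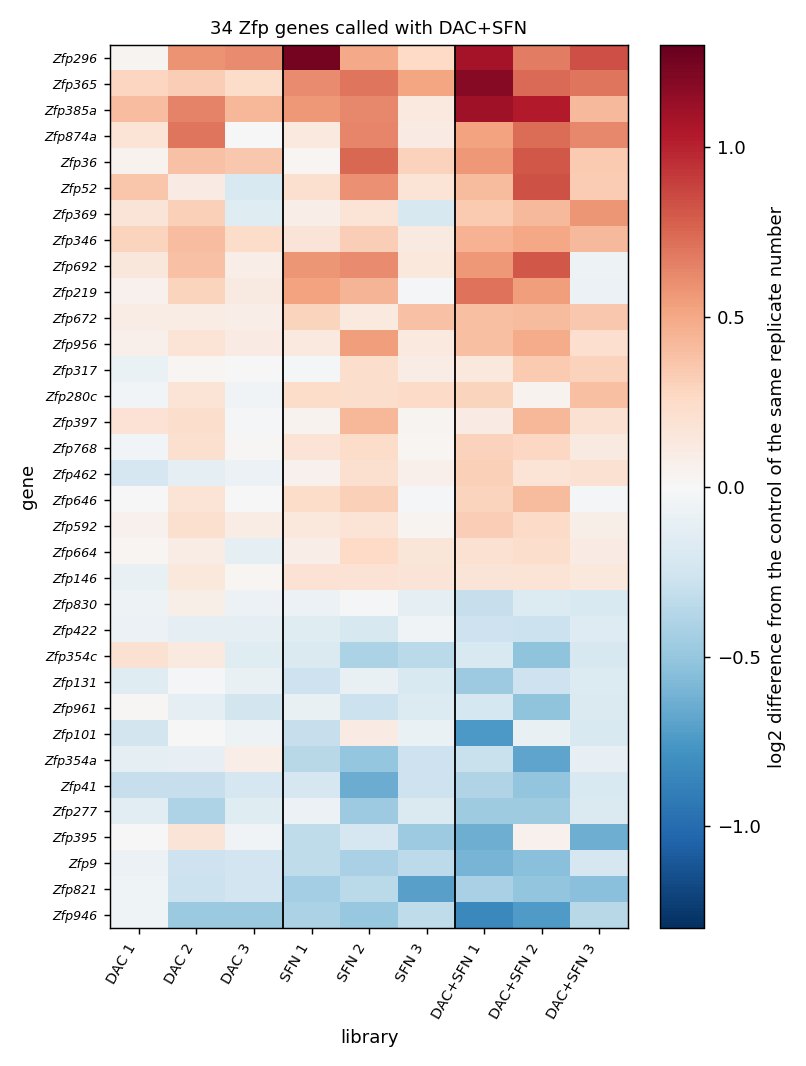
Log2 difference in TMM-normalized CPM (colour, with 0.5 CPM added) between each treated library (x axis) and the control of the same replicate number, for the 34 Zfp genes called with DAC+SFN (y axis, ordered by fitted change). Differences run from -0.84 to 1.24. The DAC+SFN columns chose the genes, so their colours are no test, and the top row, Zfp296, rests on 5 to 28 counts per library.

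The other calls with SFN alone were Zfp692, Zfp367, Zfp940, Zfp882 and Zfp318. Zfp692 rose from 21.9, 21 and 28.1 CPM to 32.9, 32.5 and 31.0 (0.44 ± 0.13, adjusted p = 0.0284), without overlap. Zfp367 rose from 48.1, 45.9 and 46.6 CPM to 51.9, 58.1 and 56.3 (0.24 ± 0.08, adjusted p = 0.0487), and had 41.8, 49.7 and 52.4 CPM with DAC+SFN. DESeq2 did not call Zfp367 with SFN (adjusted p = 0.0578). Zfp940 (-0.47 ± 0.15, adjusted p = 0.0479), Zfp882 (-0.38 ± 0.11, adjusted p = 0.0314) and Zfp318 (-0.24 ± 0.07, adjusted p = 0.0326) fell. Each of these 5 calls was lost in 5 of 6 fits that left out a compared library, as was that of Zfp9, while Zfp346 lost its SFN call in 6 of them, Zfp385a and Zfp41 in 4 and Zfp821 in 1. Zfp318, known for the expression of IgD in B cells, had 45.3, 31.4 and 41.5 CPM in control and 41.6, 26.3 and 32.3 with SFN, which overlapped but were lower within every replicate number.

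The effect of SFN was also measured on cells that received DAC. DAC+SFN compared to DAC changed 14 Zfp genes (4.44%, compared with 16.1% of all genes tested). Of these, 8 rose (9.55% of all genes rose) and 6 fell (6.60% of all genes fell). Zfp365 rose again (0.61 ± 0.09, adjusted p = 0.000704), as did Zfp462 (0.38 ± 0.07, adjusted p = 0.00349), which had 30.8, 32.3 and 34.3 CPM with DAC and 44.5, 40.2 and 41.7 with DAC+SFN, without overlap. Both calls were kept without any one of the 6 libraries, Zfp317 lost its call in 1 such fit and the other 11 genes in 4 to 6. Zfp317 (0.29 ± 0.07), Zfp672 (0.30 ± 0.09), Zfp704 (0.30 ± 0.08), Zfp52 (0.43 ± 0.14), Zfp664 (0.18 ± 0.06) and Zfp385a (0.36 ± 0.11) were called higher, the last with replicate 3 at -0.01. Zfp395 (-0.48 ± 0.14), Zfp653 (-0.44 ± 0.13), Zfp90 (-0.39 ± 0.12), Zfp354c (-0.37 ± 0.11), Zfp213 (-0.32 ± 0.09) and Zfp131 (-0.22 ± 0.07) fell. Exons of Zfp90, Zfp704 and Zfp213 share 6222, 2525 and 1520 bases with genes on the other strand.
DESeq2 did not call Zfp672 (adjusted p = 0.0569), Zfp664 (adjusted p = 0.0516) or Zfp90 (adjusted p = 0.0553) in this comparison. Without the replicate block, 0 Zfp genes were called in it. Leaving out DAC replicates 1, 2 or 3 gave 5, 3 and 9 calls, SFN replicate 1 gave 9, and DAC+SFN replicates 1 and 3 gave 3 and 25.

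SFN compared to control and DAC+SFN compared to DAC share no libraries. Of the 315 Zfp genes, 214 had the same sign in both (67.9%, compared with 74.4% of all genes tested), as had all 11 genes called with SFN and 13 of the 14 called in DAC+SFN compared to DAC. Zfp365 and Zfp385a were called in both. Across the 315 genes, which are not independent, Pearson's r of the log2 fold changes was 0.57 (0.79 over all genes tested) and Spearman's rho was 0.51 (0.69 over all genes).

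**Figure D4:**
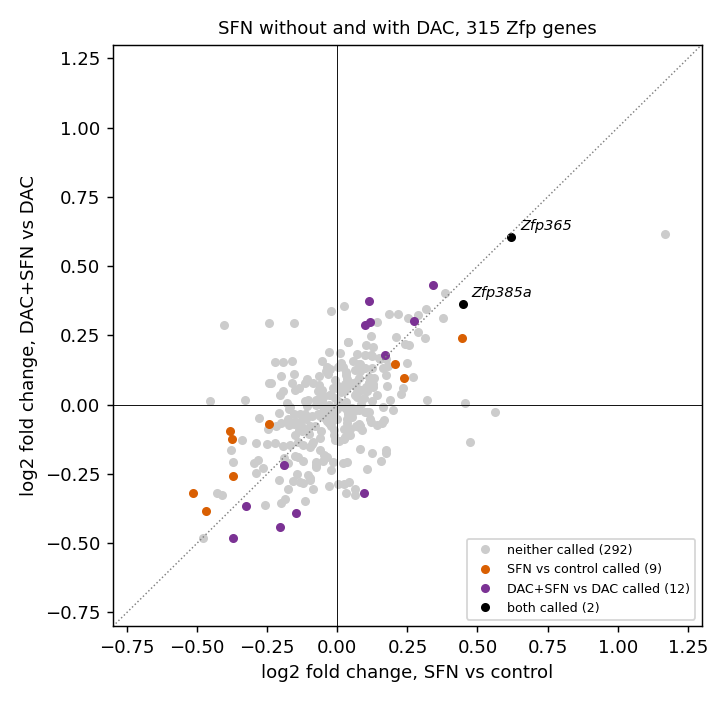
Log2 fold change of SFN compared to control (x axis) against that of DAC+SFN compared to DAC (y axis) for 315 Zfp genes, with the dotted line marking equal changes. Black points were called in both (2 genes), orange in the first alone (9) and purple in the second alone (12); Zfp365 lies near the dotted line at 0.62 and 0.61.

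The effect of DAC was likewise measured on cells that received SFN. DAC+SFN compared to SFN changed 1 Zfp gene (0.317%, compared with 1.61% of all genes tested). This was Zfp346, with 49.2, 61.0 and 50.7 CPM with SFN and 59.95, 69.1 and 62.7 with DAC+SFN (0.26 ± 0.06, adjusted p = 0.0471). The groups overlapped, and all 3 replicates rose. The call was lost without the replicate block (adjusted p = 0.584) and without any one of the 6 compared libraries except DAC+SFN replicate 3, when 4 genes were called. DESeq2 called Zfp346, Zfp385a and Zfp369. DAC compared to control and DAC+SFN compared to SFN had the same sign for 184 of the 315 Zfp genes (58.4%, compared with 63.9% of all genes), with r = 0.29 (0.49 over all genes).

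The interaction asks whether the change with both drugs differed from the sum of both changes on the log2 scale. It was called for 0 of 315 Zfp genes by edgeR and by DESeq2, with 0 of all genes called by edgeR (0.0%). At an unadjusted p under 0.05 there were 8 Zfp genes (2.54%, compared with 5.87% of all genes). For Zfp365 it was -0.01 (95% interval -0.29 to 0.27), for Zfp385a -0.08 (-0.43 to 0.26) and for Zfp346 -0.06 (-0.24 to 0.12). The median SE of an interaction was 0.16 for Zfp genes, wider than the 0.12 of the single comparisons.

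Proteins of 314 Zfp genes were searched for C2H2 fingers and a KRAB box. The median was 10 fingers, the highest number 36, and 9 proteins had 0, among them those of Zfp365 and Zfp36. A KRAB box was found in 104 by a strict pattern and in 140 by a wider pattern that was chosen after seeing the data. With DAC+SFN, 7 of the 140 were called (5.00%), 2 higher (Zfp52 and Zfp369) and 5 lower (Zfp946, Zfp101, Zfp961, Zfp354a and Zfp354c). Of the 174 without a match to the wider pattern 27 were called (15.5%), 19 higher and 8 lower. A box that the pattern missed would be counted among these 174. By the strict pattern the contrast was smaller, with 7 of 104 called with a match (6.73%) and 27 of 210 without one (12.9%). Each of these shares lay below the 31.6% of all genes. By the wider pattern, the median level was 10.8 CPM with and 22.9 CPM without a match. The part of level in the difference between the shares was not tested. The median log2 fold change was 0.0026 and 0.0058, respectively. With SFN, 2 of the 140 (1.43%) and 9 of the 174 (5.17%) were called, compared with 13.9% of all genes. By the strict pattern the shares with SFN were 1.92% with and 4.29% without a match. By finger number, DAC+SFN changed 7 of 41 genes with 0 to 3 fingers (17.1%), 13 of 98 with 4 to 9 (13.3%) and 14 of 175 with 10 or more (8.0%), again compared with 31.6% of all genes.

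Zfp genes lie in groups on the mouse genome. In GENCODE M21 on mm10, chromosome 7 held 82 of the 315, chromosome 17 held 40 and chromosome 13 held 33. Another Zfp gene, not always an expressed one, lay within 100 kb of 173 of them. When only the 315 expressed genes were grouped, 149 stood alone and 10 groups of at least 5 genes held 87. The largest, at chr13:67038596-67827002, held 21 genes, 12 of them with the wider KRAB pattern, and with DAC+SFN only Zfp874a was called among these 21. The second, with 15 genes at chr7:29768552-30169750, held 1 gene called with DAC+SFN, Zfp146, and 1 with SFN, Zfp940. The third, with 10 genes at chr7:24081924-24316666, held 0 called by edgeR. With DAC+SFN, 14 of 173 genes with such a neighbour (8.09%) and 20 of 142 without one (14.1%) were called, compared with 31.6% of all genes, at median levels of 11.3 and 22.5 CPM. Grouped Zfp genes can be alike in sequence, and reads that aligned to several places were not counted by the authors, so the counts of genes with near-identical copies are uncertain.

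Since genes with few reads are called less readily, Zfp genes were also set beside all genes within 5 ranges of level. The range of 50 CPM or more has no upper end. Zfp genes averaged at most 319.5 CPM, whereas Tyrp1 averaged 11958 CPM in control, so levels in this range are not alike. With DAC+SFN, 1 of 45 Zfp genes under 5 CPM was called (2.22%, compared with 23.5% of all genes at that level), 2 of 69 at 5 to 10 CPM (2.90% and 25.8%), 11 of 87 at 10 to 20 CPM (12.6% and 29.9%), 13 of 75 at 20 to 50 CPM (17.3% and 30.6%) and 7 of 39 at 50 CPM or more (17.9% and 36.7%). With SFN the shares were 0% to 8.0% for Zfp genes and 11% to 16.1% for all genes. The share of Zfp genes was the lower at each of the 5 levels in both comparisons. These splits were chosen after seeing the data and give no test of the difference.

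**Figure D5:**
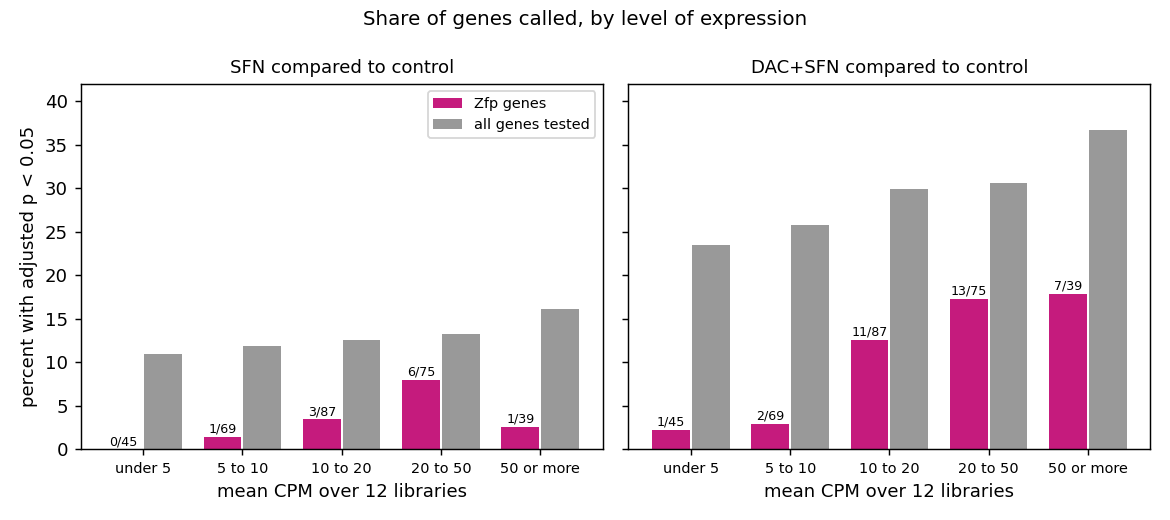
Percent of genes called (y axis, from 0) by mean CPM over the 12 libraries (x axis) for Zfp genes (pink, with the number called of the number tested) and all genes tested (grey), with SFN at left and DAC+SFN at right. The pink bar is below the grey bar at every level, for example 13 of 75 genes (17.3%) compared with 30.6% at 20 to 50 CPM with DAC+SFN.

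Zfp genes also differed between the replicate numbers. The labels do not say whether same-numbered libraries of different groups came from the same repeat of the experiment. Differences between replicates 1, 2 and 3 were called for 52 Zfp genes (16.5%, compared with 33.9% of all genes tested). Over the 4 libraries of each number, Zfp318 averaged 42.9 ± 1.90, 29.3 ± 2.54 and 37.3 ± 3.82 CPM (adjusted p = 5.2e-05), and Zfp292 49.0 ± 2.63, 37.7 ± 1.05 and 51.9 ± 5.05 CPM (adjusted p = 0.000160). Zfp395, Zfp871 and Zfp654 were likewise lowest in replicate 2. Zfp385a was highest there, with 38.7 ± 12.7, 58.5 ± 16.3 and 39.5 ± 5.93 CPM (adjusted p = 0.000564).

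At the edge of the selection, the third highest library had 1.15 CPM for Zfp69, 1.20 for Zfp433 and 1.21 for Zfp296, which were included. It had 0.960 CPM for Zfp354b, 0.883 for Zfp964 and 0.673 for Zfp773, which were left out. Of the 45 Zfp symbols left out, 17 had 0 counts in all libraries and none had more than 28 counts in a library. In all 12 libraries, 305 of the 315 Zfp genes reached 1 CPM.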

How the data were processed

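RNA of 12 samples was sequenced on a NextSeq 500 from stranded mRNA libraries (75 bp single-end reads). Per the labels and the methods of the study, the authors used Trimmomatic 0.38 for trimming and TopHat2 2.1.1 for alignment to mm10, and counted uniquely aligned reads per gene with HTSeq. The gene annotation and the strand setting of the counting are not given in the sources used here. The authors deposited raw counts per gene symbol, with no normalization. Reads of genes that overlap on opposite strands may therefore not be told apart, and of the 315 Zfp genes 101 share exon bases with another gene in GENCODE M21 (79 with one on the other strand). GENCODE matched 313 by symbol and 2 by an older symbol.

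The 11638 genes that reached 1 CPM in 3 or more libraries were scaled by TMM and tested with glmQLFTest in edgeR 4.0.16 (R 4.3.3), legacy quasi-likelihood fit, with Benjamini-Hochberg adjustment over all genes. A single model held all 12 libraries, and the replicate number was its block, since the study corrected for a batch effect. Over all genes tested, same-numbered libraries deviated together from their group means, with correlations between 0.27 and 0.73 over all 18 pairs. Over the Zfp genes alone the correlations averaged 0.26 and ran from -0.11 to 0.57, so not every pair deviated together. The SE was taken as the ratio of the log2 fold change to the root of its F statistic. Chi-square per gene between replicates was 13.6 to 37.5, so none was a copy. The fit was checked on simulated data for SFN compared to control. It recovered 16 of 50 genes changed by 1.25-fold, 38 of 50 at 1.5-fold, 46 of 50 at 2-fold and 50 of 50 at 3-fold. Changes of 1.25-fold were thus mostly missed. Alternatives were DESeq2 1.42.0 and its size factors, library totals, other filters, no replicate block, 2 groups alone and leaving out each library.

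C2H2 fingers and KRAB boxes were matched as amino acid patterns in translated GENCODE coding sequences. Promoter sequence is from RefSeq (GRCm38.p6). Named were, in each comparison, up to 10 genes per direction with the smallest adjusted p that moved alike in 3 replicates, every called gene past 2-fold, members of 4 role lists, the 5 highest and lowest levels and the 3 genes on each side of the selection threshold. Called genes outside this rule were named after their values were seen. The members, lists and tests were chosen with earlier results of these data known.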

Additional observations from a re-analysis of the deposited data

How the results depend on the processing

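No alternative turned the direction of a named Zfp gene in a comparison where it was called. Without the replicate block, that is with replicate numbers not paired, 0 Zfp genes were called with SFN, 12 with DAC+SFN (all among the 34), 0 for DAC+SFN compared to DAC and 0 for DAC+SFN compared to SFN. With only the 2 compared groups in the fit, counts were 4 with DAC, 17 with SFN, 20 with DAC+SFN, 2 for DAC+SFN compared to DAC and 9 for DAC+SFN compared to SFN. With DAC, 1 gene (Zfp346) was called with DESeq2's size factors, with library totals or with at least 10 counts in every sample, and 2 (Zfp346 and Zfp385a) by DESeq2's test or with no filter. For DAC+SFN compared to SFN, DESeq2 called 3 and the fit with no filter 2. With a fold change above 2 as well, counts were 0 with SFN, 1 with DAC+SFN and 0 for each comparison with a single drug. The causes were not tested, apart from the narrower criterion of the last.

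Leaving out 1 library at a time gave 0 to 2 calls with DAC, 2 to 20 with SFN, 15 to 49 with DAC+SFN, 3 to 25 for DAC+SFN compared to DAC, 0 to 4 for DAC+SFN compared to SFN, 0 to 0 for the interaction and 35 to 67 for the replicate number. The median log2 fold change ranged from -0.0019 to 0.031 with DAC, from -0.029 to 0.012 with SFN, from -0.043 to 0.030 with DAC+SFN, from -0.047 to 0.0052 for DAC+SFN compared to DAC, from -0.016 to 0.031 for DAC+SFN compared to SFN and from -0.025 to 0.023 for the interaction, and so crossed 0 in each. The -0.043 came from leaving out DAC+SFN replicate 3.

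With 3 libraries per group, the median SE of a log2 fold change was about 0.12. The labels give the replicate number and no other batch.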

Other observations

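Zinc finger families with other symbols were counted in the same fit, chosen after seeing the data. With DAC+SFN, 8 of 36 expressed Zbtb genes were called (22.2%), 5 higher and 3 lower, and 4 of 13 Klf genes (30.8%) of the GC-box-binding family, 1 higher and 3 lower (Klf6, Klf11, Klf13 and Klf15). Of 17 Zscan and Zkscan genes, 3 were called, all higher. Of 37 genes whose protein held a finger and a KRAB box under another kind of symbol, 6 were called (16.2%), all lower, with a median log2 fold change of -0.09 over the 37. With SFN, 0 Zbtb, 0 Zscan and Zkscan, 2 Klf and 0 of the 37 KRAB genes were called by edgeR. Over all genes tested, 31.6% were called with DAC+SFN and 13.9% with SFN.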
